A study of Mus musculus with 6 samples.

Results

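The ATF4 response and the aminoacyl-tRNA synthetases were examined in bulk RNA sequencing of fibroblasts from the mouse enthesis, the place where tendon or ligament joins bone. The members were 38 genes taken by symbol from a list of stress factors, amino acid synthesis and transport genes and synthetases. The list was chosen with earlier results of these data known. All 38 stood among the 17419 genes of the deposited table. Slc7a3 alone had too few counts to be tested, with 0.19 to 0.34 CPM in diseased and 0.31 to 0.88 CPM in un-diseased samples, which left 37 tested members; it shares 1086 bases with the more highly counted Snx12, so even these few reads are uncertain. CPM is the usual depth-scaled count of a gene, and 3 counts, the limit that a count of 0 allows, were worth 0.147 to 0.188 CPM, for counting error only.

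The compared groups were 3 samples labelled diseased, whose titles carry NTS, and 3 samples labelled un-diseased, whose titles carry UN. SKG mice carry a point mutation of Zap70, a T cell signalling kinase, and are prone to autoimmune arthritis; all 6 samples share this strain. The labels explain neither title code and give no age, sex, or way in which disease was brought on. Whether each sample is its own animal or culture is not stated, and p-values therefore reflect the variation among these 6 samples alone, part or all of which may be technical. Totals lay between 16720605 and 18290870 counts per sample. Fibroblast markers were abundant: Col1a2 averaged 23502 ± 4555 CPM in diseased and 16754 ± 4517 CPM in un-diseased samples (SD, n = 3 each, as in all such pairs below). Col1a1 averaged 21104 ± 4846 CPM in diseased and 12885 ± 3369 CPM in un-diseased samples. By edgeR it passed neither with nor without the replicate block, the term for replicate number explained below. Of the 8 fibroblast markers 6 had a positive fold change, and Dcn (-0.53 on the log2 scale) and Pdgfra (-0.17) had a negative one. By edgeR 0 of the 8 passed without the block, and 2 rose with it, against 10.5% of all genes. All 6 tendon and enthesis markers had a positive fold change (median 0.91 on the log2 scale); Thbs4 (1.16, adjusted p = 0.0357) and Fmod (1.02, adjusted p = 0.0392) rose, and 4 of the 6 rose with the block. Other cells left RNA too. The 18 macrophage markers summed to 199 to 542 CPM in diseased and 47.8 to 277 CPM in un-diseased samples, and 17 of the 18 had a positive fold change (median 1.22 on the log2 scale); none of the 18 was at 0 in all samples. By edgeR 0 of the 18 passed without the replicate block, where 6 had an unadjusted p below 0.05 and DESeq2 called 2 higher, and 17 rose with it, against 10.5% of all genes. Neutrophil markers summed to 55.6 to 157 CPM in diseased and 6.13 to 159 CPM in un-diseased samples. The 8 T and B cell markers summed to less than 10 CPM in every sample.

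The integrated stress response begins when a kinase that senses missing amino acids, misfolded protein, viral RNA or lack of haem phosphorylates the translation factor eIF2. Most protein synthesis then slows, while the mRNA of the transcription factor ATF4 is translated more. ATF4, usually paired with a C/EBP protein, turns on genes that import or make amino acids, charge tRNAs and, through feedback genes, end the response. Fibroblasts that secrete much collagen draw heavily on glycine and proline, which links this programme to matrix production. Since ATF4 is controlled mainly at translation, its mRNA level is not a measure of its activity.

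In outline, Trib3 and Cebpg were lower and Slc1a4 was higher in diseased samples by the test on all genes, and the other 34 tested members did not pass it. Fold changes are on the log2 scale and positive where diseased samples were higher, and a gene passed when its edgeR quasi-likelihood p, adjusted after Benjamini and Hochberg over 13264 genes, lay below 0.05. The 2 lower members were 5.41% of the 37, against 2.13% of all genes called lower, and the 1 higher member compared with 1.61% of all genes called higher. The fold change was negative for 30 of 37 members, or 81.1%, against 48.2% of all genes, and the median was -0.33 against 0.02 over all genes. At an unadjusted p below 0.05, 13 members were lower and 2 higher, 15 of 37, against 27.8% of all genes. Leaving out un-diseased replicate 1 kept Slc1a4 and gave 9 lower members, where 721 of 13446 genes were lower. Leaving out any one of the other 5 samples gave 0 calls among the members. Those fits called few genes at all, 2 to 39 higher and 3 to 87 lower of 13429 to 13538 tested. Under upper-quartile scaling 28 of the 37 fold changes were negative.

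Samples with the same replicate number deviated together from their group means. Because of this pattern in the same data, the comparison was also made with the number as a term of the model, called the replicate block here. The labels do not state that the numbers pair samples, so pairs and partners here mean samples of equal number. On simulated data the blocked test called somewhat more genes falsely than its threshold allows. With the block 16 members fell, 43.2% of those tested, against 13.3% of all genes, and 1 rose, Slc1a4, against 10.5% of all genes. The same fit called 17 of 18 macrophage and 4 of 6 tendon and enthesis markers higher, and the part of either in the members' falls was not tested. The 16 were Atf4, Cebpg, Trib3, Chac1, Sesn2, Gdf15, Mthfd2, Slc7a1, Slc7a5, Slc3a2, Slc38a2, Slc1a5, Cars, Nars, Iars and Yars. Left with 2 of the 3 pairs, the block called 16 members lower without pair 1, 15 without pair 2 and 8 without pair 3. Over all genes it called 1556 of 13300, 1274 of 13344 and 583 of 13395 lower, in the same order. Gdf15 lost its blocked call without pair 1, Gdf15 and Yars without pair 2, and Atf4, Cebpg, Mthfd2, Slc3a2, Slc1a5, Nars, Iars and Yars without pair 3. Tars was added without pair 1 and Phgdh without pair 2; these fits were chosen after seeing the data. Unblocked, DESeq2 called 9 members lower, all of them among the 16, where it called 882 of 13263 genes lower.

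**Figure D1:**
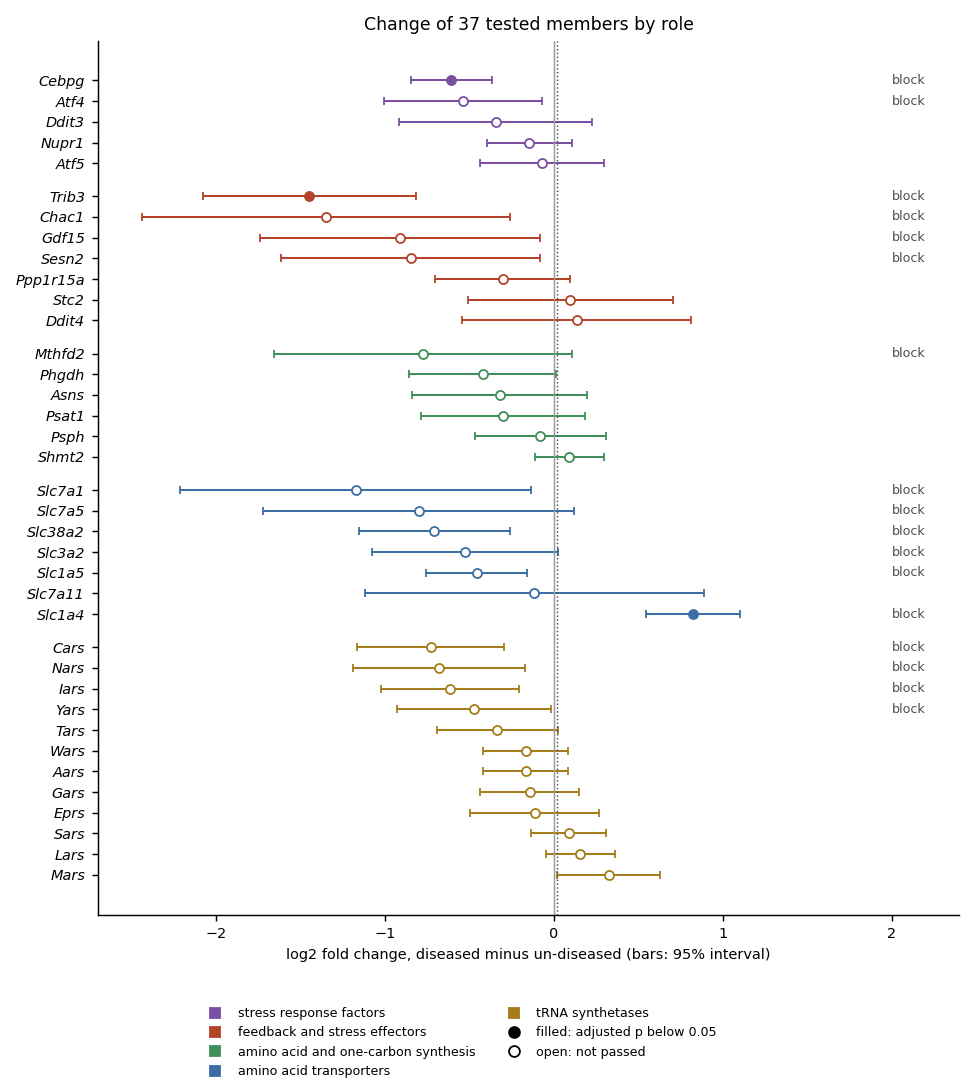
Log2 fold change of the 37 tested members, diseased minus un-diseased, from the test without the block, with 95% intervals and members grouped by role. Filled points passed at an adjusted p below 0.05, "block" marks members that passed with the replicate block, and the dotted line is the median of all genes, 0.02. Trib3 and Cebpg lie to the left and Slc1a4 alone of the passing members lies to the right.

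ATF4 binds DNA with its C/EBP partners at a composite element of which TGATGNAA is the conserved part, N standing for any base. A promoter window of 250 bases before to 50 after an annotated start, from RefSeq (GRCm38.p6), was at hand for 31 of the 38 members, in 35 windows. For some genes, among them Slc7a11, Aars and Yars, the start used lies inside the RefSeq span of the gene. TGATGNAA on either strand was found in 11 of these windows, from 11 genes, or 31.4%, against 3.97% of all 32851 windows. The list was drawn up around the ATF4 response, so a share above that of all windows says nothing about these samples. The letters of a full cyclic AMP element, TGACGTCA, were in 1 member window, that of Ppp1r15a, against 1.79% of all windows, and the ER stress response element was in 0, against 0.119%. The 11 genes with TGATGNAA were Aars, Asns, Chac1, Gars, Iars, Nupr1, Slc1a4, Slc7a11, Tars, Trib3 and Yars. A match describes letters in these windows and is no evidence of binding, and a gene may carry its element elsewhere.

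The windows of 6 of these genes are shown, so that matches to TGATGNAA stand at genes with different values. They include the member with the largest negative fold change, Trib3, the one that rose, Slc1a4, and one with little difference, Slc7a11. Each window runs 5′ to 3′ on the gene's strand, from 250 bases before the start to 30 after it, with the matches in capitals. Windows lie on GRCm38.p6 at chr2:152344031-152344310 (minus strand) for Trib3, chr2:119350992-119351271 (plus) for Chac1, chr11:20332684-20332963 (minus) for Slc1a4, chr3:50443584-50443863 (minus) for Slc7a11, chr13:49681880-49682159 (plus) for Iars and chr4:129189653-129189932 (plus) for Yars.
Trib3: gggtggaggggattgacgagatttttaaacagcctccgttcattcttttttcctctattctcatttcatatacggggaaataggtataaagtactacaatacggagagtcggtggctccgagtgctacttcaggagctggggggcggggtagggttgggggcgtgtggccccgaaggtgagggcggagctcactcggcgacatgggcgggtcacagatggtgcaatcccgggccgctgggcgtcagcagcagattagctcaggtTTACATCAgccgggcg
Chac1: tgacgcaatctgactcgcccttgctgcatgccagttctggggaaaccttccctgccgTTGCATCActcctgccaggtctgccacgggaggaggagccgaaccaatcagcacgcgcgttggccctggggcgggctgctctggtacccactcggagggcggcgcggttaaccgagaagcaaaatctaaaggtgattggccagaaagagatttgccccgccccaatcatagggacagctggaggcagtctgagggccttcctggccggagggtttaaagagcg
Slc1a4: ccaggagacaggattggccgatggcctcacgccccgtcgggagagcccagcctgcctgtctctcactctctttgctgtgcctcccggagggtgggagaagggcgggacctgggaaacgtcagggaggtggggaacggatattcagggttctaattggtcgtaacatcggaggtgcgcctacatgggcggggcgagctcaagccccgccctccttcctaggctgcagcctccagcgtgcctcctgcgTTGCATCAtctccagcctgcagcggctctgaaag
Slc7a11: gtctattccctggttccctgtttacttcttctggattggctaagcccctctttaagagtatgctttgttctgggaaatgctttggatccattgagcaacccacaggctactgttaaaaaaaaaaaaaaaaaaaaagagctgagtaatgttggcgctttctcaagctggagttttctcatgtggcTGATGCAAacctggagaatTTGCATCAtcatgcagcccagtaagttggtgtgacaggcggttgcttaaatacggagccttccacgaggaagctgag
Iars: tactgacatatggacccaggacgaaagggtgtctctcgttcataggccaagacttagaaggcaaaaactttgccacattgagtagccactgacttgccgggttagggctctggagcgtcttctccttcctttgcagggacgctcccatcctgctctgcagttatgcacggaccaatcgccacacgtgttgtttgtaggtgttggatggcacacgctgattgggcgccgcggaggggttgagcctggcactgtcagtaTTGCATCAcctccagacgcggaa
Yars: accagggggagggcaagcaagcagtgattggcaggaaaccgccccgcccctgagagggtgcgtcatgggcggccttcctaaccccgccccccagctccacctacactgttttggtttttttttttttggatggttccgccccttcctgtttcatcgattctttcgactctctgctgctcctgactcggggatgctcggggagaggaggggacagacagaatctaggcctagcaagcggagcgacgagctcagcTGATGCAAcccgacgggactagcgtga

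The match began 193 bases before the start in Chac1, 66 and 47 bases before it in Slc7a11 and 4 bases before it in Slc1a4, and just past it in Trib3, Iars and Yars. Chac1, Slc1a4, Iars, Yars and both Slc7a11 sites carried the letters TGATGCAA, read on one strand or the other, while Trib3 carried TTACATCA. Among the 11 genes with a match, log2 fold changes ran from -1.45 for Trib3 to 0.82 for Slc1a4, with 10 negative and 1 positive. Fold changes were negative for 81.1% of all tested members and 48.2% of all genes. Whether a match goes with the fold change was not tested.

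**Figure D2:**
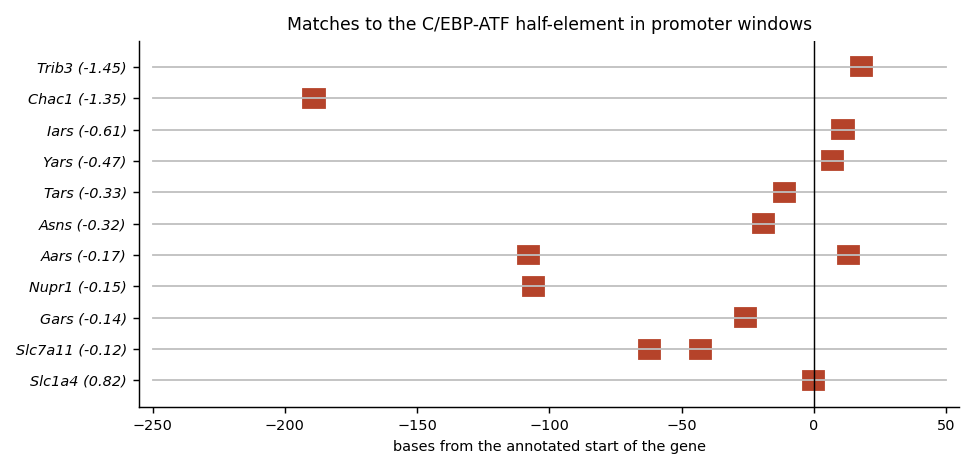
Place of each match to TGATGNAA, on either strand, in the promoter windows of the 11 members that hold one. The x axis is the distance in bases from the start used for the window, which for Aars, Slc7a11 and Yars lies inside the gene. The number beside each gene is its log2 fold change, diseased minus un-diseased. The matches of Trib3, Iars and Yars and the second of Aars begin past the start, and that of Chac1 lies farthest upstream.

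Of the 5 transcription factors and cofactors of the response, Cebpg fell, and Atf4 passed with the replicate block. With the block 2 of the 5 fell, against 13.3% of all genes. Cebpg encodes C/EBP gamma, a partner of ATF4 on DNA, and lies on chromosome 7 from 35046422 to 35056566. It had 50.7, 43.6 and 48.1 CPM in diseased replicates 1, 2 and 3, against 66.97, 73.0 and 77.4 CPM in un-diseased replicates 1, 2 and 3. The groups did not overlap, as was so with diseased below for 8 of 37 members and 15.4% of all genes, and with diseased above for 2 of 37 and 16.5%; in either direction it was 31.9% of all genes. Its log2 fold change was -0.61 (SE 0.10, adjusted p = 0.0293), and with the block -0.61 (adjusted p = 0.0062). Adjusted p was above the threshold without diseased replicate 1 (0.0568), 2 (0.0565) or 3 (0.1401), and without un-diseased replicate 2 (0.1014) or 3 (0.0898); with the block it was 0.0576 without pair 3.

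Atf4 itself (chromosome 15, 80255184 to 80257545) was an abundant mRNA. It had 176, 265 and 236 CPM in diseased replicates 1, 2 and 3, against 257, 362 and 364 CPM in un-diseased replicates 1, 2 and 3. Diseased replicate 2 stood above un-diseased replicate 1, so the groups overlapped, although each diseased sample was below the un-diseased sample of its own number. The fold change was -0.54 on the log2 scale (SE 0.20, adjusted p = 0.143), and -0.54 with the block (SE 0.10, adjusted p = 0.0103).

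The other 3 factors did not pass with or without the block. Nupr1, a small stress-induced chromatin protein, averaged 81.6 ± 3.38 CPM in diseased and 90.2 ± 9.83 CPM in un-diseased samples. Atf5, a relative of Atf4 that is also controlled at translation, ranged from 50.6 to 58.3 CPM in diseased and from 46.7 to 71.0 CPM in un-diseased samples, and its fold change of -0.07 became 0.01 under upper-quartile scaling. Ddit3 encodes CHOP, the factor that links a lasting response to cell death, and averaged 24.0 ± 3.65 CPM in diseased and 30.5 ± 11.0 CPM in un-diseased samples. Its 95% interval on the log2 scale ran from -0.92 to 0.23, a range that includes both a fall and a small rise. Ddit3 shares 77 bases with Mbd6 and 71 with Mars, and Atf5 shares 571 bases with Nup62; the counting is not stated to use strand, so reads there could belong to either gene.

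**Figure D3:**
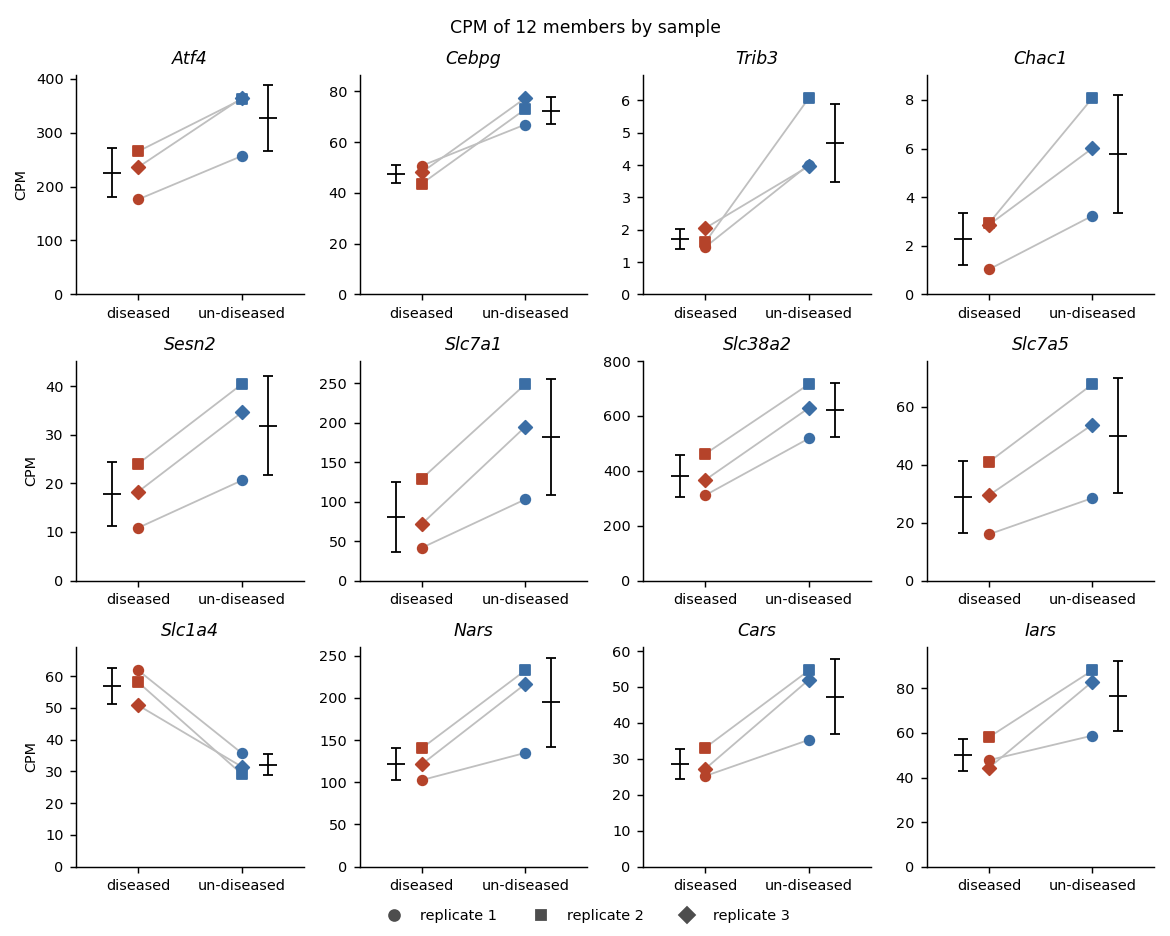
CPM of 12 members in each sample, diseased on the left and un-diseased on the right; grey lines join samples of the same replicate number, and symbols mark the replicate; bars beside the points give the mean and SD of 3 samples. Slc1a4 is higher in the 3 diseased samples, and the other 11 genes are lower in the diseased sample of each pair.

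Among the 7 feedback and effector genes Trib3 fell, and Chac1, Sesn2 and Gdf15 joined it with the replicate block. With the block 57.1% of the 7 fell, against 13.3% of all genes. Trib3 encodes a pseudokinase that restrains ATF4 and the kinase AKT, and lies on chromosome 2 from 152337425 to 152344060. It had 1.47, 1.62 and 2.05 CPM in diseased replicates 1, 2 and 3, against 4.01, 6.07 and 3.97 CPM in un-diseased replicates 1, 2 and 3. No diseased sample reached the lowest un-diseased one, and the log2 fold change of -1.45 (SE 0.27, adjusted p = 0.0368) was a level of 0.367 times that of un-diseased samples. With the block it was -1.43 (adjusted p = 0.0070). Trib3 was a low mRNA, with at least 26 counts in each sample. The adjusted p rose to 0.0925, 0.0677 and 0.1325 without diseased replicates 1, 2 and 3, and to 0.1088 and 0.0797 without un-diseased replicates 2 and 3.

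Chac1, which degrades the antioxidant glutathione and is among the most responsive ATF4 targets known, had 1.03, 2.93 and 2.86 CPM in diseased replicates 1, 2 and 3, against 3.23, 8.08 and 6.01 CPM in un-diseased replicates 1, 2 and 3. The groups did not overlap, but un-diseased replicate 1 stood only slightly above diseased replicates 2 and 3. Its log2 fold change was -1.35 (SE 0.47, adjusted p = 0.126), and -1.37 with the block (SE 0.21, adjusted p = 0.0048).

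Sesn2 encodes sestrin 2, a leucine sensor that holds back the growth kinase mTORC1, and had 10.9, 24.0 and 18.3 CPM in diseased replicates 1, 2 and 3, against 20.6, 40.4 and 34.6 CPM in un-diseased replicates 1, 2 and 3. Each diseased sample was lower than its partner, by 0.92, 0.75 and 0.91 on the log2 scale in pairs 1, 2 and 3, while the groups overlapped. The fold change was -0.85 (SE 0.33, adjusted p = 0.152), and -0.86 with the block (SE 0.10, adjusted p = 0.0023).

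Gdf15 encodes a circulating stress hormone that curbs appetite, and had 1.81, 3.80 and 2.81 CPM in diseased replicates 1, 2 and 3, against 4.59, 7.39 and 3.78 CPM in un-diseased replicates 1, 2 and 3. Diseased replicate 2 slightly exceeded un-diseased replicate 3, and the log2 fold change was -0.91 (SE 0.36, adjusted p = 0.152; with the block -0.91, adjusted p = 0.0254).

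The other 3 effectors passed neither test. Ppp1r15a, the GADD34 subunit that directs a phosphatase to eIF2 and so ends the response, had 255, 349 and 336 CPM in diseased replicates 1, 2 and 3, against 449, 374 and 337 CPM in un-diseased replicates 1, 2 and 3. The difference was almost wholly that of pair 1, at -0.82 on the log2 scale, with -0.10 in pair 2 and -0.00 in pair 3. Its window holds the one match to TGACGTCA, 12 bases before the start. Ddit4, the mTORC1 inhibitor REDD1, which also answers to hypoxia and glucocorticoids, averaged 60.4 ± 8.31 CPM in diseased and 55.1 ± 22.6 CPM in un-diseased samples. Stc2, a secreted stanniocalcin, was near 2 CPM throughout, with 2.00 ± 0.39 CPM in diseased and 1.88 ± 0.18 CPM in un-diseased samples.

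None of the 6 genes of amino acid and one-carbon synthesis passed without the block; 5 fold changes were negative and the median was -0.31. All 6 had overlapping groups. At an unadjusted p below 0.05 the count was also 0, and DESeq2 called 0 of the 6. With the block 1 of the 6 fell, against 13.3% of all genes. This was Mthfd2, the mitochondrial enzyme that supplies one-carbon units. It had 10.1, 19.1 and 12.1 CPM in diseased replicates 1, 2 and 3, against 11.7, 28.9 and 29.9 CPM in un-diseased replicates 1, 2 and 3. Replicate 1 was low in both groups and differed little between them, and the largest difference was in pair 3, at -1.30 on the log2 scale. The fold change was -0.77 (SE 0.38, adjusted p = 0.225), and -0.72 with the block (adjusted p = 0.0311).

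The other 5 genes of this group passed neither test. Phgdh, the first enzyme of serine synthesis, averaged 16.7 ± 2.33 CPM in diseased and 22.3 ± 4.84 CPM in un-diseased samples, with a log2 fold change of -0.42 and an interval of -0.86 to 0.01. Psat1, the second enzyme, averaged 11.7 ± 1.87 CPM in diseased and 14.4 ± 3.32 CPM in un-diseased samples, and Psph, the last, 8.95 ± 1.20 and 9.48 ± 1.31 CPM in diseased and un-diseased samples. Shmt2, which makes glycine from serine in mitochondria and stood highest of the 6 per length of mRNA, at 16.3 CPM per kb in diseased and 15.3 CPM per kb in un-diseased samples, had 35.9, 37.9 and 38.04 CPM in diseased replicates 1, 2 and 3, against 34.8, 33.9 and 36.3 CPM in un-diseased replicates 1, 2 and 3. Its fold change was 0.09 with an interval of -0.11 to 0.30, the narrowest of the 6. Asns, asparagine synthetase, had 23.0 ± 5.51 CPM in diseased and 28.7 ± 6.06 CPM in un-diseased samples and just missed the threshold with the block (adjusted p = 0.051).

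Amino acid transporters held the member that rose and, with the block, the most falls of any group. Of the 7 tested, 1 rose, 0 fell and 6 did not pass without the block, where 1.61% of all genes rose and 2.13% fell; with it 5 fell and 1 rose, against 13.3% and 10.5% of all genes. Slc1a4 encodes ASCT1, which exchanges alanine, serine, cysteine and threonine, and lies on chromosome 11 from 20302180 to 20332713. It had 61.8, 58.0 and 50.8 CPM in diseased replicates 1, 2 and 3, against 35.8, 29.2 and 31.5 CPM in un-diseased replicates 1, 2 and 3. All 3 diseased samples lay above all 3 un-diseased ones. The log2 fold change of 0.82 (SE 0.12, adjusted p = 0.0254) was 1.77 times the un-diseased level, and 0.82 with the block (adjusted p = 0.0024). The call was lost without diseased replicate 1 (adjusted p = 0.0543), 2 (0.0515) or 3 (0.1165) and without un-diseased replicate 2 (0.0888) or 3 (0.0731), and held with the block without any one pair.

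Its paralogue Slc1a5 encodes ASCT2, the glutamine carrier, and had 154, 189 and 162 CPM in diseased replicates 1, 2 and 3, against 212, 256 and 226 CPM in un-diseased replicates 1, 2 and 3. The groups did not overlap and pointed the opposite way to Slc1a4, at -0.46 on the log2 scale (SE 0.13, adjusted p = 0.0876; with the block -0.46, adjusted p = 0.0131). The 3 pairs gave -0.46, -0.44 and -0.48. Whether the changes of the 2 paralogues differ from each other was not tested.

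Slc38a2 encodes SNAT2, a sodium-coupled carrier of small neutral amino acids such as proline and glutamine, and was the most abundant transporter of the list per length of mRNA, at 81.5 CPM per kb in diseased and 133.2 CPM per kb in un-diseased samples. It had 311, 462 and 367 CPM in diseased replicates 1, 2 and 3, against 518, 715 and 629 CPM in un-diseased replicates 1, 2 and 3. The groups did not overlap, and the log2 fold change was -0.71 (SE 0.19, adjusted p = 0.0808; with the block -0.71, adjusted p = 0.0053).

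Slc7a1 encodes CAT1, the main carrier of arginine and lysine, and had the largest fold change of the 7 tested transporters. It had 41.5, 129 and 71.6 CPM in diseased replicates 1, 2 and 3, against 103, 249 and 195 CPM in un-diseased replicates 1, 2 and 3. Both groups spread about as widely as they differed, and replicate 2 was the highest and replicate 1 the lowest sample in each. The log2 fold change was -1.17 (SE 0.45, adjusted p = 0.147), and -1.23 with the block (SE 0.12, adjusted p = 0.0013).

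Slc7a5 and Slc3a2 encode the 2 chains of LAT1, the leucine carrier; the Slc3a2 chain is shared with other carriers. Slc7a5 had 15.9, 40.9 and 29.4 CPM in diseased replicates 1, 2 and 3, against 28.5, 67.7 and 53.8 CPM in un-diseased replicates 1, 2 and 3. Slc3a2 had 116, 199 and 150.1 CPM in diseased replicates 1, 2 and 3, against 167, 257 and 246 CPM in un-diseased replicates 1, 2 and 3. In both genes the groups overlapped and each pair was lower in the diseased sample. Log2 fold changes were -0.80 for Slc7a5 (adjusted p = 0.228; with the block adjusted p = 0.0023) and -0.53 for Slc3a2 (adjusted p = 0.194; with the block adjusted p = 0.0114).

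Slc7a11 encodes xCT, which joins Slc3a2 to import cystine for glutathione, and had 16.4, 46.1 and 23.7 CPM in diseased replicates 1, 2 and 3, against 17.7, 44.2 and 31.5 CPM in un-diseased replicates 1, 2 and 3. It followed the replicate number more than the group: the 2 replicate 1 samples were lowest and the 2 replicate 2 samples highest. Its log2 fold change was -0.12 with an interval of -1.12 to 0.89, and with the block -0.15 (adjusted p = 0.369).

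Aminoacyl-tRNA synthetases load each amino acid onto its tRNA, and ATF4 is known to raise many of the cytosolic ones together. Of the 12 tested, 0 passed without the block, against 3.73% of all genes, and 5 had an unadjusted p below 0.05, against 27.8%. DESeq2 called 3 lower, Cars, Iars and Nars, where it called 882 of 13263 genes lower. The median log2 fold change of the 12 was -0.17, against -0.42 over the other 25 tested members. With the block Cars, Nars, Iars and Yars fell and 0 rose, against 13.3% and 10.5% of all genes. The 4 that fell were 33.3% of the 12 synthetases, against 12 of the other 25 members.

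Cars, the cysteine enzyme, had 25.2, 33.1 and 27.2 CPM in diseased replicates 1, 2 and 3, against 35.3, 54.6 and 52.0 CPM in un-diseased replicates 1, 2 and 3. Its groups stood apart, at -0.73 on the log2 scale (SE 0.19, adjusted p = 0.0717; with the block -0.71, adjusted p = 0.0052). Nars, for asparagine, had 103, 140.4 and 121 CPM in diseased replicates 1, 2 and 3, against 135, 233 and 216 CPM in un-diseased replicates 1, 2 and 3. Un-diseased replicate 1 lay within the diseased range, and the log2 fold change was -0.68 (SE 0.22, adjusted p = 0.113; with the block -0.65, adjusted p = 0.0070).

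Iars, for isoleucine, had 47.8, 58.1 and 44.4 CPM in diseased replicates 1, 2 and 3, against 58.8, 88.0 and 83.0 CPM in un-diseased replicates 1, 2 and 3. The lowest un-diseased sample was barely above the highest diseased one, and the log2 fold change was -0.61 (SE 0.18, adjusted p = 0.0913; with the block -0.60, adjusted p = 0.0125). Yars, for tyrosine, had 40.6, 50.8 and 45.7 CPM in diseased replicates 1, 2 and 3, against 45.1, 76.0 and 69.3 CPM in un-diseased replicates 1, 2 and 3. Pair 1 differed by -0.15 on the log2 scale, against -0.58 and -0.60 in pairs 2 and 3, and the fold change was -0.47 (SE 0.20, adjusted p = 0.169; with the block -0.44, adjusted p = 0.028).

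The other 8 synthetases passed neither test, and their fold changes ran from -0.33 for Tars to 0.32 for Mars. Tars, for threonine, was close with the block (adjusted p = 0.0596) and averaged 59.6 ± 3.98 CPM in diseased and 75.2 ± 14.7 CPM in un-diseased samples. Wars, for tryptophan, is also induced by interferon and had 22.0, 25.8 and 26.3 CPM in diseased replicates 1, 2 and 3, against 28.2, 26.7 and 28.2 CPM in un-diseased replicates 1, 2 and 3. Its groups stood apart by little, at -0.17 (adjusted p = 0.330). Eprs, the joint enzyme for glutamate and proline, had 154, 219.5 and 185 CPM in diseased replicates 1, 2 and 3, against 172, 219 and 214 CPM in un-diseased replicates 1, 2 and 3. Aars, for alanine, Gars, for glycine, and Eprs had log2 fold changes of -0.17, -0.14 and -0.11, each with an interval that spans 0. Aars shares 3974 bases with Ddx19b.

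Sars, for serine, Lars, for leucine, and Mars, for methionine, had positive fold changes of 0.09, 0.16 and 0.32. Lars had 58.1, 56.9 and 58.3 CPM in diseased replicates 1, 2 and 3 and 48.7, 53.7 and 53.0 CPM in un-diseased replicates 1, 2 and 3, which left a small gap between its groups. Mars had 39.1, 49.5 and 46.1 CPM in diseased replicates 1, 2 and 3, against 40.8, 33.7 and 33.0 CPM in un-diseased replicates 1, 2 and 3; it rose with the block without pair 1 and passed in no other setting. Per length of mRNA, Nars was the leading synthetase, at 44.2 CPM per kb in diseased and 70.9 CPM per kb in un-diseased samples, ahead of Eprs and Gars, whose order differed between the groups.

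**Figure D4:**
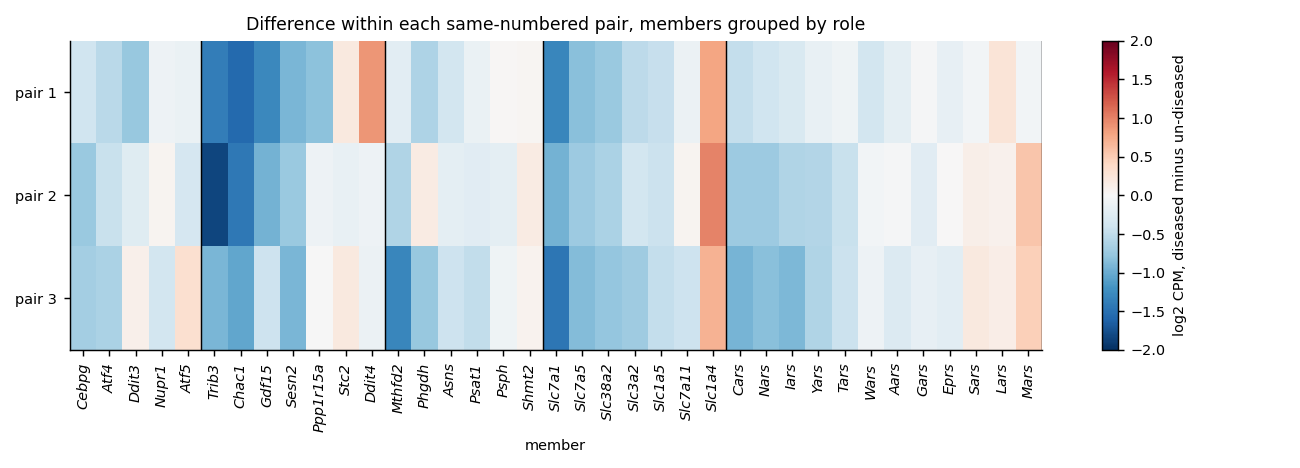
Difference in log2 CPM within each same-numbered pair, diseased minus un-diseased, for the 37 tested members; members stand in order of role and then of fold change, and blue is lower in the diseased sample. Trib3, Chac1, Sesn2, Slc7a1, Slc7a5 and Slc38a2 are blue in all 3 pairs, and Slc1a4 is red in all 3.

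Members also shared a pattern by replicate number. Replicate 1 was the lowest sample of both groups for 19 of 37 members, or 51.4%, against 21.8% of all genes; replicate 2 was lowest in both for 1 member and replicate 3 for 0, against 19.6% and 8.66%. The 19 included Atf4, Chac1, Sesn2, all of Slc7a1, Slc7a5, Slc3a2, Slc7a11, Slc38a2 and Slc1a5, and 7 synthetases. The diseased sample was lower than its partner in all 3 pairs for 23 members, or 62.2%, against 30.1% of all genes, and higher in all 3 for Slc1a4, Shmt2 and Lars, or 8.11%, against 30.7%. Macrophage markers in replicate 1 summed to 358 CPM in the diseased and 119 CPM in the un-diseased sample. They were highest in replicate 2 of both groups, at 542 and 277 CPM in diseased and un-diseased samples. The same sums were lowest in replicate 3 of both groups, at 199 and 47.8 CPM in diseased and un-diseased samples. Members such as Slc7a1, Slc7a5, Slc7a11 and Sesn2 were also highest in replicate 2 of both groups, while others, such as Cebpg, were not. The part of macrophage RNA in the members' pattern was not tested. In bulk samples, fewer cells of a type and less RNA per cell cannot be told apart.

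Upstream of ATF4, 0 of 15 genes for eIF2 kinases, eIF2 and its exchange factor passed without the block, against 3.73% of all genes, while 5 had an unadjusted p below 0.05 and DESeq2 called 1 lower. With the block 5 fell and 1 rose, against 23.9% called in either direction over all genes. Eif2ak4 encodes GCN2, the kinase that senses uncharged tRNA, and averaged 19.7 ± 1.94 CPM in diseased and 25.9 ± 2.60 CPM in un-diseased samples (adjusted p = 0.110; with the block 0.0463). Eif2ak2 encodes PKR, the kinase that senses double-stranded RNA and is induced by interferon, and averaged 39.6 ± 4.64 CPM in diseased and 30.7 ± 2.94 CPM in un-diseased samples (adjusted p = 0.121; with the block 0.0284). Eif2b3, a subunit of the exchange factor, averaged 12.6 ± 0.32 CPM in diseased and 17.6 ± 1.45 CPM in un-diseased samples (adjusted p = 0.0631; with the block 0.0223).

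Further ATF4 targets outside the member list went both ways. Of 16 tested, 2 rose and 1 fell, while the block gave 4 that rose and 3 that fell, against 10.5% and 13.3% of all genes; the median log2 fold change was -0.06. The 2 that rose make proline: Aldh18a1, the first enzyme, averaged 67.8 ± 7.89 CPM in diseased and 40.3 ± 0.58 CPM in un-diseased samples (log2 fold change 0.75, SE 0.11, adjusted p = 0.0254), and Pycr1, the last, 15.7 ± 1.13 CPM in diseased and 7.36 ± 1.29 CPM in un-diseased samples (1.09, SE 0.16, adjusted p = 0.0254). Herpud1, which takes part in the removal of misfolded protein from the endoplasmic reticulum, fell to 84.8 ± 9.15 CPM in diseased, against 122.1 ± 1.47 CPM in un-diseased samples (-0.53, SE 0.11, adjusted p = 0.0435). With single samples left out, Aldh18a1 kept its call without diseased replicate 1 or un-diseased replicate 1, and Pycr1 and Herpud1 kept theirs without un-diseased replicate 1 alone; elsewhere the adjusted p reached 0.123, 0.127 and 0.182.

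Other amino acid transporters included 2 that rose and 0 that fell of 13 tested; with the replicate block 4 rose and 3 fell, against 10.5% and 13.3% of all genes. Slc38a1, a relative of Slc38a2, averaged 15.9 ± 1.24 CPM in diseased and 8.69 ± 0.48 CPM in un-diseased samples (0.87, SE 0.13, adjusted p = 0.0254). Slc1a3, a glutamate and aspartate carrier of the family of Slc1a4, averaged 91.4 ± 14.9 CPM in diseased and 46.2 ± 9.22 CPM in un-diseased samples (0.98, SE 0.18, adjusted p = 0.0351). Both kept their calls without un-diseased replicate 1 and lost them without each other sample, with adjusted p up to 0.116 and 0.146. Slc38a10 passed only with the block, at 350.9 ± 44.2 CPM in diseased and 239.7 ± 9.24 CPM in un-diseased samples (0.55 without the block, adjusted p = 0.0603; with it 0.0115).

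The arms of the unfolded protein response that work through ATF6 and XBP1 were mixed, with 12 positive and 4 negative fold changes among 16 targets, or 25% negative against 48.2% of all genes. The median was 0.33, and 1 rose, Pdia4, a disulfide isomerase, with 152.4 ± 30.4 CPM in diseased and 87.7 ± 11.1 CPM in un-diseased samples (0.80, SE 0.17, adjusted p = 0.0472); its adjusted p was 0.0533 to 0.171 when any one sample was left out. With the block 4 rose and 0 fell, against 10.5% and 13.3% of all genes, the others being Calr, Pdia6 and Hsp90b1. The 4 with negative values, none of which passed, were Hspa5, Atf6, Dnajb9 and Sel1l. Hspa5, which encodes the chaperone BiP, averaged 1386 ± 561 CPM in diseased and 1669 ± 161 CPM in un-diseased samples, with -0.79, 0.12 and -0.36 on the log2 scale in pairs 1, 2 and 3. The difference between these targets and the members was not tested.

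**Figure D5:**
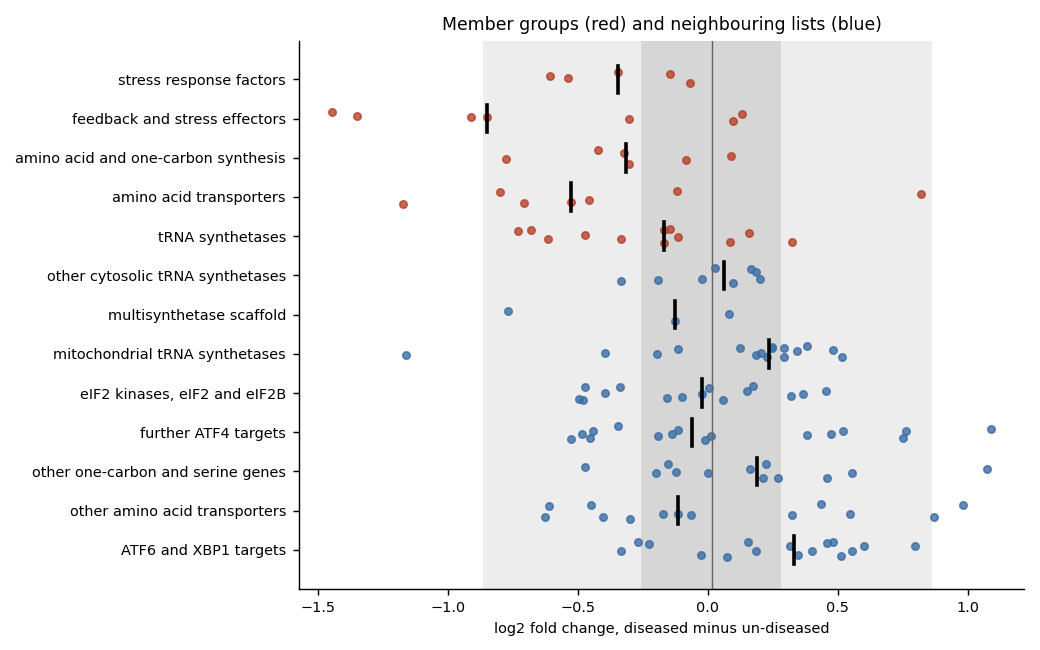
Log2 fold change of each tested gene, diseased minus un-diseased, in the 5 member groups (red) and 8 neighbouring lists (blue); black bars are medians, the grey bands span the 25th to 75th and the 5th to 95th percentile of all genes, and the line is their median. The feedback and effector group has the lowest median, -0.85, and the ATF6 and XBP1 targets the highest, 0.33.

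In the authors' deposited table, which gives un-diseased over diseased, a q-value below 0.05 stood beside 8 members lower in diseased samples and 1 higher. The share of all genes with such a q-value was not computed, so these counts have no background here. The authors' deposited table gave a log2 ratio of 1.46 for Trib3 (q = 0.000817), 0.62 for Cebpg (q = 0.000275) and -0.81 for Slc1a4 (q = 1.6e-05), and for Atf4 0.55 (q = 0.0941).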

How the data were processed

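RNA of 3 diseased and 3 un-diseased samples was read in pairs on a BGISEQ-500, per the labels. The deposited table gives estimated counts per gene; the tools named, per the submitters' processing notes, are RSEM 1.3.1, HISAT2 2.0.4 and DESeq2 1.4.5, with the build GRCm38 and no role or order. Fractions remained in 9.61% of the deposited estimated counts, which were rounded. The deposited log2 ratio and p-value and q-value columns were made by the authors and are quoted only where named.

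Genes were kept with filterByExpr (least count 10), scaled by TMM and tested with edgeR 4.0.16 in R 4.3.3. The fit had 4 residual degrees of freedom, or 2 with the replicate block. Steps were tested on simulated data, where the blocked test called somewhat more genes falsely than its threshold allows. The alternatives also used limma 3.58.1 and DESeq2 1.42.0. Members and lists were chosen with earlier results of these data known. Every member is accounted for, those that passed or whose groups stood apart per sample. From other lists up to 3 genes that passed with or without the block are named, by smallest p without it. Other genes with a smaller p with the block may thus be left out. Hsp90b1, Hspa5, Atf6, Dnajb9 and Sel1l are exceptions, named after their values were seen. mRNA length is that of the longest coding transcript in GENCODE vM21.

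Same-numbered samples deviated together, in log2 CPM with a prior count of 2. Correlations over 13264 genes were 0.487, 0.578 and 0.276 for replicates 1, 2 and 3. The pairing rests on the labels' numbers and these correlations, and no label states it. Replicates differed by a chi-square per gene of 25.7 to 62.1, more than sampling noise.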

Additional observations from a re-analysis of the deposited data

How the results depend on the processing

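RLE factors, both other filters and limma-voom kept all counts within 1.5 times. Genes higher and lower in diseased numbered 213 and 282, against 1397 and 1770 with the replicate block, 635 and 882 by DESeq2, 417 higher by upper-quartile factors, and 2 and 2 at a threshold of 0.01. Members numbered 1 higher and 2 lower, against 16 lower with the block, 9 lower by DESeq2, and 0 and 0 at 0.01, where 15 had an unadjusted p below 0.05 by edgeR. Leaving out single samples gave 2 to 354 genes higher and 3 to 721 lower, and 0 to 1 member higher and 0 to 9 lower; without un-diseased replicate 1 it was 9. The block without pair 1, 2 or 3, added after seeing the data, gave 1013, 809 and 426 genes higher and 1556, 1274 and 583 lower, with 16, 15 and 8 members lower and, without pair 1, 2 higher. Fewer samples enter these fits; other causes were not tested. No member that passed changed sign. Of those that did not pass, Atf5 came to 0.015 and Psph to 0.0070 with upper-quartile factors, and with the replicate block Atf5 came to 0.094 without pair 2 and Ddit4 to -0.13 without pair 1, each a change of sign. With single samples left out, log2 fold changes ran from -0.20 to 0.10 for Atf5, -0.16 to 0.44 for Ddit4, -0.054 to 0.22 for Stc2, -0.19 to 0.030 for Psph, -0.63 to 0.21 for Slc7a11 and -0.25 to 0.0075 for Eprs. Upper-quartile scaling moved the median of all genes to 0.10 and of members to -0.25.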

Other observations

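Mitochondria have synthetases of their own, and 12 of the 16 tested were positive in fold change (median 0.24 on the log2 scale). By edgeR 0 passed without the block, 2 had an unadjusted p below 0.05, and DESeq2 called 1 lower. With the block Hars2 rose and Mars2 fell, against 10.5% and 13.3% of all genes. Mars2, for methionine, averaged 1.75 ± 0.32 CPM in diseased and 3.92 ± 1.64 CPM in un-diseased samples. Of the 8 other cytosolic synthetases Rars, for arginine, passed only with the block, at 35.1 ± 3.31 CPM in diseased and 44.2 ± 7.64 CPM in un-diseased samples (adjusted p = 0.192; with the block 0.0456). Eef1e1, a scaffold protein of the multisynthetase complex, averaged 6.67 ± 1.81 CPM in diseased and 11.3 ± 4.69 CPM in un-diseased samples (adjusted p = 0.203; with the block 0.023).

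Of 12 other one-carbon and serine genes, 0 passed by edgeR without the block, 3 had an unadjusted p below 0.05, DESeq2 called 1 higher, and 2 rose with the block, against 10.5% of all genes; their median log2 fold change was 0.19. Aldh1l1, a cytosolic folate enzyme, averaged 11.0 ± 1.39 CPM in diseased and 7.498 ± 1.13 CPM in un-diseased samples (0.55, SE 0.17, adjusted p = 0.103; with the block 0.0225). Gldc, the decarboxylase that breaks down glycine, averaged 16.3 ± 5.12 CPM in diseased and 7.75 ± 1.78 CPM in un-diseased samples, and did not pass (1.07 on the log2 scale, SE 0.26, adjusted p = 0.064; with the block 0.0070).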
